A study of Homo sapiens with 12 samples.

Results

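U1 is the small nuclear RNA of the spliceosome that recognises the start of an intron, and the 128 gene IDs described here are its genes and copies in HEK293 cells and in the extracellular vesicles (EVs) those cells release. They are the rows, out of 57773, whose symbol starts with RNU1- or RNVU1-. The 128 comprised 4 U1 genes (RNU1-1 to RNU1-4), 17 variant copies named RNVU1 and 107 copies named as pseudogenes. HEK293 is an established line derived from human embryonic kidney. All 4 groups carried the 4EC1 vectors (eGFP, EIF4E, YTHDF1 or GBP1, and CD9 in the vector name), lipofected for 48 h into cells in medium with 10% serum, so no group lacked them. The groups were EVs of cells held for 24 h in a hypoxia chamber (hypoxia EVs), EVs of cells in normoxia (normoxia EVs), hypoxia cells and normoxia cells, with 3 libraries each and 12 in all. TRIzol was used for the cells and an exoRNeasy kit for the vesicles, and both yielded stranded total RNA libraries. The vesicles came from a single transfected line, and the labels name no serum-free or untransfected control.

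In the textbook account, U1 RNA is transcribed by RNA polymerase II, carried to the cytoplasm, clothed there with the ring of Sm proteins by the SMN complex, given a trimethylated cap and returned to the nucleus. There it binds the proteins U1-70K, U1-A and U1-C, and its first bases pair with the 5′ splice site. It is also known for keeping RNA polymerase II from using early polyadenylation sites. The genome holds many copies of the gene, and variants that depart from the main sequence are known to be transcribed in human cells.

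Sequences came from the transcripts of GENCODE release 29 on GRCh38, and all 128 copies had one. Of these, 7 shared the same 164 bases: RNU1-1, RNU1-2, RNU1-3, RNU1-4, RNVU1-18, RNU1-27P and RNU1-28P. Any read that lies within those bases matches all 7 equally well. The rule that placed such reads was not given in the sources used, so the value of a single copy among the 7 is uncertain. The sequences printed here are the shared one and those of the copies whose values are set against it. In RNU1-1 the capitals mark the letters ACTTACCTG at positions 3 to 11, which hold the bases that pair with the splice site, and AATTTGTGG at positions 125 to 133, which hold the Sm site. In the other copies the capitals mark bases that differ from RNU1-1.
RNU1-1: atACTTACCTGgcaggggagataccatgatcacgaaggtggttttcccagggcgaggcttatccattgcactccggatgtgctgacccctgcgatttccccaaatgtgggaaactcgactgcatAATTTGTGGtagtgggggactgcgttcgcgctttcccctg
RNVU1-7: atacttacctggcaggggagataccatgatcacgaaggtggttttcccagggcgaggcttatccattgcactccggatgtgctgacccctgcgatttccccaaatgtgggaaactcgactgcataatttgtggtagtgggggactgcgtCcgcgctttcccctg
RNVU1-1: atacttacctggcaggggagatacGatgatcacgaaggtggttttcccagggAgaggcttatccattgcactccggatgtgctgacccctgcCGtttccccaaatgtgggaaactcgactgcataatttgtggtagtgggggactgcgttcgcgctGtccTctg
RNU1-11P: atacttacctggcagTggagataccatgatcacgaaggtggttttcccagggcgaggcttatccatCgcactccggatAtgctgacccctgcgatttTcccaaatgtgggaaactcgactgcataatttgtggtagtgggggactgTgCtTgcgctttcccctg
RNVU1-6: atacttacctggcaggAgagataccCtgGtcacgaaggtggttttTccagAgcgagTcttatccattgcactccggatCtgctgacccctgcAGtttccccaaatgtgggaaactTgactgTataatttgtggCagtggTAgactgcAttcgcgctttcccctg
RNVU1-14: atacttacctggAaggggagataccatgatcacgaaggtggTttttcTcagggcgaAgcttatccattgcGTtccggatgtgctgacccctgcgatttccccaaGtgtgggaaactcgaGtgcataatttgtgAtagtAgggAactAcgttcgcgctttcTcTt
RNVU1-15: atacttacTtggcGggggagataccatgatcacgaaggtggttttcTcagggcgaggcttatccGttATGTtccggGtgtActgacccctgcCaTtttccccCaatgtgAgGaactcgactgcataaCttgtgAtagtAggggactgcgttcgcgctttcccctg
Positions are counted from 1 at the 5′ end of RNU1-1. RNVU1-7 differed from it by the single substitution T150C, RNVU1-1 by 6, RNU1-11P by 7 and RNVU1-6 by 15. RNVU1-14 and RNVU1-15 aligned to it with gaps, at an identity of 90.9% and 89.1%. RNVU1-14 kept the pairing letters and RNVU1-15 did not, and neither kept the Sm letters.

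RNU1-1 lies at chr1:16514122-16514285 on the minus strand, RNU1-3 at chr1:16666785-16666948 on the minus strand, RNU1-4 at chr1:16740516-16740679 on the plus strand and RNU1-2 at chr1:16895980-16896143 on the plus strand. RNU1-2 and RNU1-4 sit in introns of CROCC as annotated. RNU1-27P and RNU1-28P lie close together on chromosome 14, at chr14:34546714-34546877 on the plus strand and chr14:34556226-34556389 on the minus strand, outside other genes. The RNVU1 copies shown are also on chromosome 1, where RNVU1-18 lies at chr1:143729407-143729570, RNVU1-7 at chr1:148038753-148038916 and RNVU1-6 at chr1:146052081-146052244, each on the minus strand and outside other genes. RNVU1-1 lies at chr1:148362370-148362533 on the minus strand, in an intron of LINC01138. RNVU1-14 lies at chr1:145281116-145281279 on the plus strand, across an exon of AC245014.3 on the same strand, and RNVU1-15 at chr1:144412576-144412740 on the plus strand, outside other genes. RNU1-11P lies at chr6:13214056-13214219 on the plus strand, in an intron of PHACTR1. In all, 30 of the 128 copies were on chromosome 1, 67 overlapped another annotated gene and 10 overlapped an exon on the same strand. Their identity to RNU1-1 ranged from 55.4% to 100%, with a median of 83.0%.

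The pairing letters ACTTACCTG were found in 40 of the 128 copies, against 0.664% of 1959 other transcripts of 120 to 180 bases. The Sm letters AATTTGTGG were in 56 copies, against 0.459% of those transcripts. GATCACGAA, in the first stem-loop that U1-70K binds, was in 28 copies (0.255% of other transcripts), and ATTGCACTC, in the second stem-loop that U1-A binds, was in 52 (0.255%). None of these letters occurred on the opposite strand of any copy, where other transcripts held them in at most 0.204%. The 4 motifs do not overlap each other in RNU1-1. As their letters are those of RNU1-1 and the members are annotated as copies of U1, an excess over other transcripts was fixed in advance. The counts only describe which copies keep the letters.

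Cell libraries held 18059381 to 23400813 reads on genes, hypoxia EV libraries 3259453 to 6129782 and normoxia EV libraries 5266244 to 7001767. Values are in deposited units, read counts divided by a single factor for each library, and a read was worth 0.481 to 0.551 units in cells and 1.34 to 2.52 units in EVs. The summed reads of EIF4E, YTHDF1 and CD9, which the vectors name, were 19.97% to 23.2% of hypoxia EV libraries, 21.9% to 24.4% of normoxia EV libraries, 6.93% to 7.28% of hypoxia cell libraries and 5.89% to 6.56% of normoxia cell libraries. The 7 HEK293 line markers that could be matched each averaged at least 10 units in every group. Of 8 blood cell markers, 7 averaged at least 10 units in hypoxia EVs, 5 in normoxia EVs, 1 in hypoxia cells and 1 in normoxia cells, with none at 0. Their summed levels were 282 to 396 units in hypoxia EVs, 168 to 301 in normoxia EVs, 49.9 to 59.8 in hypoxia cells and 54.0 to 60.1 in normoxia cells. Of 8 liver and plasma markers, none at 0, the number that averaged at least 10 units was 6 in hypoxia EVs, 5 in normoxia EVs, 2 in hypoxia cells and 1 in normoxia cells. They summed to 533 to 709 units in hypoxia EVs, 112 to 311 in normoxia EVs, 34.5 to 76.3 in hypoxia cells and 39.8 to 54.6 in normoxia cells. The part of such RNA in the values below was not tested.

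Of the 128 copies, 103 had reads in at least 1 library, 10 had reads in all 12 libraries and 25 had none. All 4 U1 genes, 15 of the 17 variants and 84 of the 107 pseudogenes had reads, and 46 copies had only 1 to 10 reads over the 12 libraries together. A zero leaves room for 3 reads, equal to 4.01 to 7.57 units in a hypoxia EV library, 5.405 to 7.14 in a normoxia EV library and 1.44 to 1.65 in a cell library. Reads were seen on 68 copies in hypoxia EVs, 43 in normoxia EVs, 82 in hypoxia cells and 72 in normoxia cells. The U1 reads of a library numbered 1332 to 3237 in hypoxia EVs, 3237 to 3924 in normoxia EVs, 592 to 802 in hypoxia cells and 694 to 997 in normoxia cells. The 12 copies with the highest means held 94.2% of pooled U1 reads in hypoxia EVs, 98.1% in normoxia EVs, 76.9% in hypoxia cells and 77.8% in normoxia cells.

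U1 RNA was far more abundant in EV libraries than in cell libraries. The copies summed to 4324, 3097 and 3359 units in hypoxia EVs, against 320.2, 335 and 421 units in hypoxia cells. In normoxia the sums were 9334, 5936 and 6327 units in EVs, against 483, 382 and 479.7 units in cells. Every EV library lay above every cell library, and the ratio of means was 10.02 in hypoxia and 16.1 in normoxia. The same ratio for the olfactory receptor genes described below was 12.1 in hypoxia and 5.90 in normoxia. In hypoxia the U1 ratio was thus not above theirs. In RPM, with all reads on genes as the base, U1 averaged 435 ± 82.6 in hypoxia EVs, 582 ± 98.9 in normoxia EVs, 36.02 ± 5.02 in hypoxia cells and 41.3 ± 4.97 in normoxia cells (SD, n = 3 each), which gave ratios of 12.1 and 14.1. These bulk values cannot tell more vesicles or cells of a kind apart from more U1 RNA in each. A sum over copies is given without a test.

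The kinds of copy contributed unequally. The 4 U1 genes summed to 2155, 1297 and 1415 units in normoxia EVs, against 151, 93.7 and 141 units in normoxia cells, a ratio of 12.6. The 17 variants summed to 3580.0, 2625 and 2416 units in normoxia EVs, against 209, 183 and 224 units in normoxia cells, a ratio of 13.98. The 107 copies named as pseudogenes reached a ratio of 23.7, with 3599, 2014 and 2496 units in EVs and 122, 106 and 114 units in cells. Of these, RNU1-27P and RNU1-28P carry the full U1 sequence shown above. They averaged 972 and 1596 of the 2703 units of all pseudogenes in normoxia EVs, against 13.6 and 39.1 of 114 units in normoxia cells. The ratio of 23.7 thus mainly describes these copies and not the pseudogenes as a class.

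Sorted by sequence, the EV excess lay in the copies nearest to RNU1-1. The 7 identical copies summed to 3438, 2390.3 and 2565 units in hypoxia EVs, against 184, 216 and 259 in hypoxia cells, and to 7712, 4486 and 5142 in normoxia EVs, against 304, 213 and 309 in normoxia cells. Their ratios of EV to cell means were 12.7 in hypoxia and 20.99 in normoxia. The 18 other copies of at least 90% identity gave ratios of 9.54 and 18.3, carried mostly by RNVU1-7. That copy averaged 517 of their 605 units in hypoxia EVs and 1147 of their 1333 units in normoxia EVs. Of the rest, RNVU1-1 and RNU1-11P averaged higher in normoxia EVs than in normoxia cells, and RNVU1-14 and RNVU1-6 lower. The ratios thus do not describe these 18 copies as a class. The 103 copies under 90% identity gave 2.53 in hypoxia and 0.858 in normoxia. Among these, RNVU1-15, at 89.1% identity, averaged 26.8 of their 99.9 units in normoxia cells and 3.00 of their 85.7 units in normoxia EVs. The normoxia ratio thus does not describe these 103 copies as a class. Those 103 summed to 194, 157 and 222 units in hypoxia EVs, 23.8, 82.9 and 150.5 in normoxia EVs, 77.3, 66.4 and 82.9 in hypoxia cells and 109, 102 and 89.01 in normoxia cells.

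**Figure D1:**
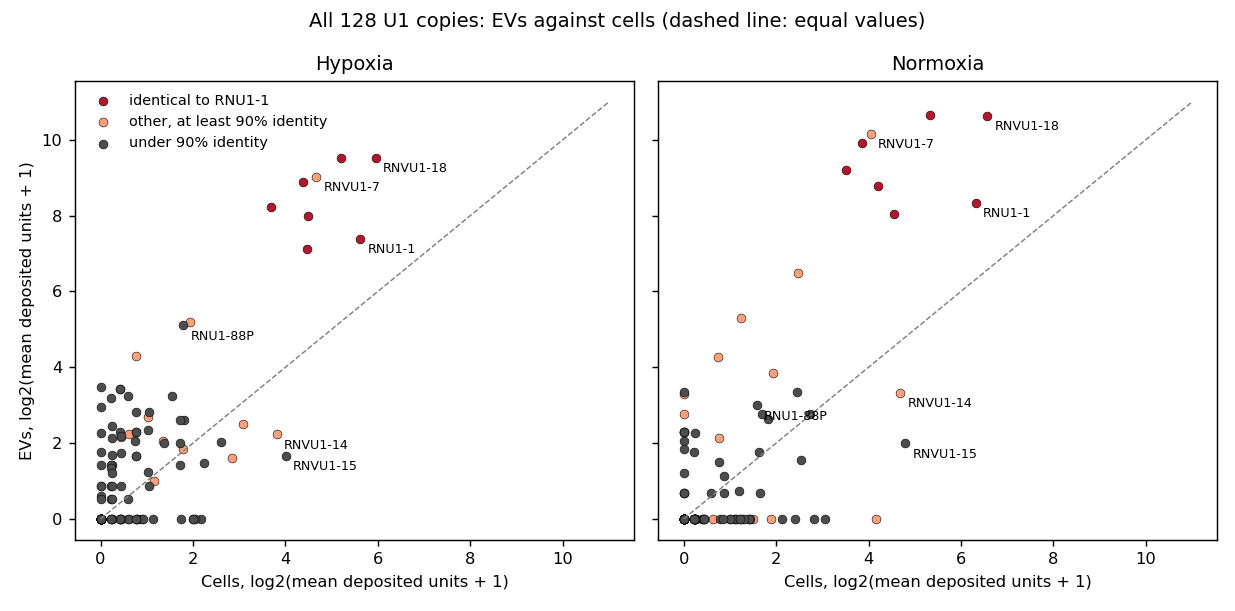
Each point is 1 of the 128 U1 copies, with log2 of its mean deposited units plus 1 in cells on the x axis and in EVs on the y axis (left hypoxia, right normoxia, means of 3 libraries, dashed line at equal values). The 7 copies identical to RNU1-1 lie well above the line in both panels, RNVU1-14 and RNVU1-15 lie below it, and most copies under 90% identity are close to 0 on both axes.

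Low values of the divergent copies were set beside those of genes that kidney-derived cells are not known for. Summed olfactory receptor genes (350 IDs), which encode odour receptors of the nasal lining, held 7124, 6808 and 7664 units in hypoxia EVs, against 1261, 2155 and 4202 in normoxia EVs. In cells they held 727, 525 and 536 units after hypoxia, against 489, 477 and 325 in normoxia. The ratio of hypoxia to normoxia EVs was 2.84 for these genes and 2.23 for the 103 divergent U1 copies, against 0.484 for the 7 identical ones. Hypoxia over normoxia cells gave 0.756 for the divergent copies and 1.39 for the olfactory receptor genes. Normoxia EVs over normoxia cells gave 0.858, in which RNVU1-15 weighed as given above, and 5.90. Hypoxia EVs over hypoxia cells gave 2.53 and 12.1, beside 10.02 for all U1 copies and 12.7 for the identical ones. In RPM that ratio was 14.5 for the olfactory receptor genes, beside 12.1 for all U1 copies. The number of genes above 0 was 40153 to 41743 in hypoxia EV libraries and 27767 to 36869 in normoxia EV libraries. The part of this in the divergent copies was not tested.

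Among other small nuclear RNAs, the EV excess was shared by U5 and not by U2. U5, which holds exons together during splicing, had 31 IDs that summed to 12360.0, 6313 and 6663 units in normoxia EVs, against 613, 756 and 963 in normoxia cells, a ratio of 10.9. In hypoxia the ratio was 5.53. U2, which pairs with the branch point, had 69 IDs that summed to 278, 308 and 217 units in normoxia EVs, against 1430.2, 1594 and 1809 in normoxia cells. Its ratio was 0.199 in hypoxia and 0.166 in normoxia, the opposite direction to U1. U4, the partner of U6, gave 0.327 in hypoxia and 0.977 in normoxia, and U6, which takes the place of U1 at the splice site, gave 1.16 in hypoxia and 0.831 in normoxia. Tested gene by gene in normoxia, 7 of 21 other small nuclear RNAs were higher in EVs and 6 lower, near the 29% and 27.2% of all genes. RNU5E-1 differed by a log2 fold change (EVs over cells) of 3.82 ± 0.27 (SE), with a limma adjusted p of 1.84e-09. RNU2-59P differed by -3.15 ± 0.26, with a limma adjusted p of 8.89e-09.

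**Figure D2:**
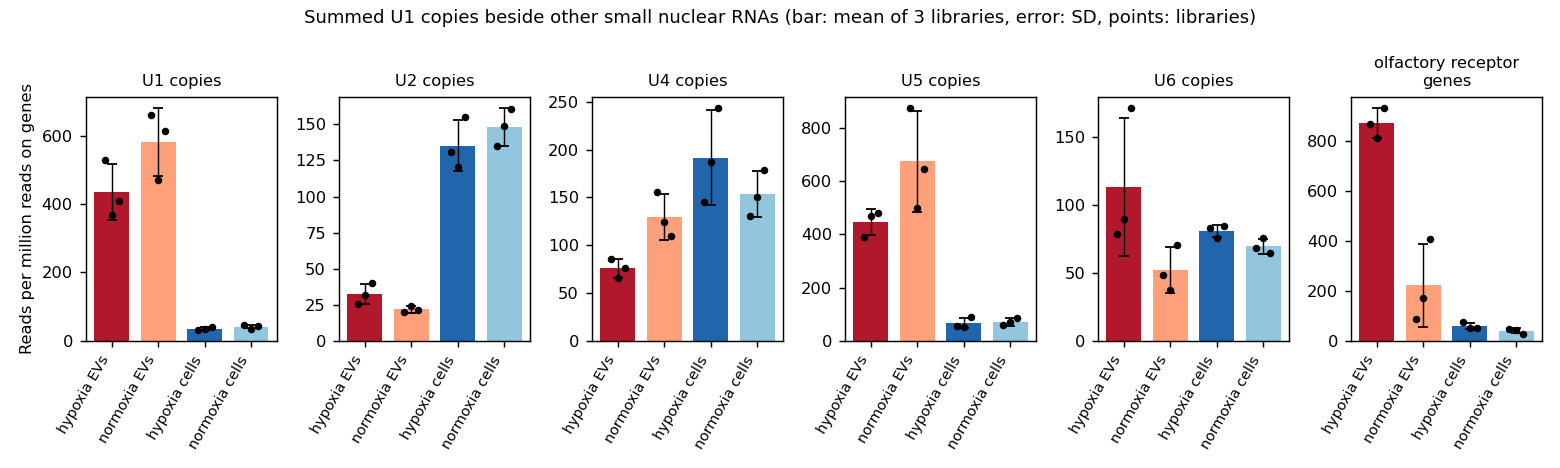
RPM, with all reads on genes as the base, summed over the copies of U1, U2, U4, U5 and U6 and over olfactory receptor genes, in each group (bars: mean of 3 libraries, error bars: SD, points: libraries). U1 averaged 435 in hypoxia EVs and 582 in normoxia EVs, against 36.02 and 41.3 in hypoxia and normoxia cells, while U2 is higher in cells.

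Single copies were tested with limma on log2(value + 1), so each fold change is on that scale and understates the change of low copies, and is given with its SE. A copy counts as changed at an adjusted p under 0.05. The fit of all 12 libraries took genes that averaged at least 10 units, which 13 of the 128 copies did. A copy could pass through its EV values alone or its cell values alone, so the counts describe these 13 and not the family. In normoxia EVs 10 of the 13 were higher than in normoxia cells and 2 were lower, where 29% of all genes tested were higher and 27.2% were lower. In hypoxia EVs 11 of the 13 were higher than in hypoxia cells and 1 was lower, where 40.6% of all genes were higher and 29.1% were lower. In both conditions the higher copies include all 7 identical ones and RNVU1-7, which differs from them by a single base. Reads within the shared bases cannot tell the 7 apart, so these counts do not stand for as many separate RNAs.

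RNVU1-18, a variant by name that carries the U1 sequence unchanged, had the highest mean. It held 962, 632 and 623 units in hypoxia EVs, against 56.2, 70.02 and 56.6 units in hypoxia cells. In normoxia its values were 2022, 1313 and 1433 units in EVs, against 101, 74.95 and 106 units in cells. The EV and cell values were far apart, with log2 fold changes (EVs over cells) of 3.55 ± 0.22 in hypoxia (limma adjusted p = 2.24e-10) and 4.06 ± 0.22 in normoxia (limma adjusted p = 1.39e-10).

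RNU1-28P, a pseudogene by name with the same sequence, reached the level of RNVU1-18 in EVs but not in cells. Hypoxia EVs held 795, 681 and 724 units of it, against 28.1, 43.3 and 36.7 units in hypoxia cells. Normoxia EVs held 2191, 1199.9 and 1397 units, against 38.2, 30.9 and 48.1 units in normoxia cells. Its EV and cell libraries did not overlap, with log2 fold changes of 4.33 ± 0.25 in hypoxia (limma adjusted p = 8.51e-11) and 5.29 ± 0.25 in normoxia (limma adjusted p = 2.22e-11).

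RNVU1-7, which carries the single substitution T150C, had the largest fold change of the 13 copies in normoxia. Reads that do not cover that base match the 7 identical copies equally well, so its value is uncertain too. It held 581, 484 and 487 units in hypoxia EVs, against 16.8, 22.1 and 34.1 units in hypoxia cells. For normoxia the values were 1401, 1142 and 899 units in EVs, against 10.6, 15.98 and 20.2 units in cells. The cell values were among the lower ones of the top copies and the EV values among the higher ones, with log2 fold changes of 4.41 ± 0.30 in hypoxia (limma adjusted p = 5.33e-10) and 6.13 ± 0.30 in normoxia (limma adjusted p = 3.07e-11).

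RNU1-27P, the neighbour of RNU1-28P, followed the same pattern. Its values were 657, 426 and 325 units in hypoxia EVs, against 14.6, 21.6 and 23.6 units in hypoxia cells. They were 1344, 676 and 897 units in normoxia EVs, against 13.6, 13.8 and 13.5 units in normoxia cells. The spread between EV libraries was wide and that between normoxia cells narrow, and the log2 fold changes were 4.46 ± 0.32 in hypoxia (limma adjusted p = 9.12e-10) and 6.0 ± 0.32 in normoxia (limma adjusted p = 7.91e-11).

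**Figure D3:**
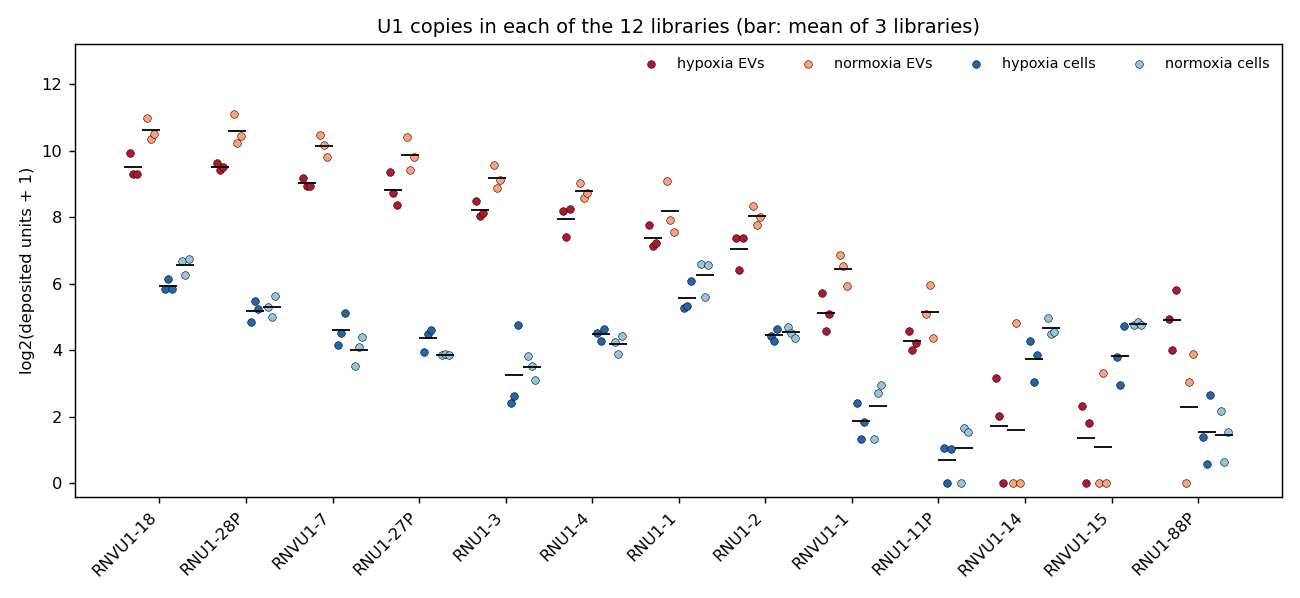
Log2 of deposited units plus 1 for the 12 U1 copies with the highest means and for RNU1-88P, with a point for each library and a bar for the mean of each group of 3. From RNVU1-18 to RNU1-11P the EV points lie above the cell points, and for RNVU1-14 and RNVU1-15 most lie below them.

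The values given to the 4 U1 genes, although identical in sequence, differed in level and in EV to cell ratio. Reads within the shared bases match each of them equally well, and the part of read placement in these differences was not tested. RNU1-3 held 354, 260.3 and 277 units in hypoxia EVs, against 4.33, 5.15 and 26.2 in hypoxia cells, where 1 library stood above the other two. In normoxia it held 764, 465 and 549 units in EVs, against 13.1, 10.5 and 7.70 in cells. RNU1-3 thus showed the largest fold change of the 4 genes, 4.94 ± 0.48 in hypoxia (limma adjusted p = 3.99e-08) and 5.70 ± 0.48 in normoxia (limma adjusted p = 1.21e-08) on the log2 scale.

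RNU1-4 was the second of the 4 genes in EVs. Hypoxia EVs held 291, 169 and 303 units of RNU1-4, against 22.2, 18.5 and 24.1 in hypoxia cells. Normoxia EVs held 521, 378 and 424 units, against 18.1, 13.8 and 20.7 in normoxia cells. The groups stood apart, with log2 fold changes of 3.46 ± 0.32 (limma adjusted p = 2.02e-08) in hypoxia and 4.58 ± 0.32 (limma adjusted p = 1.48e-09) in normoxia.

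RNU1-1 was the U1 gene with the highest cell level and the smallest EV excess. It held 215, 139 and 149 units in hypoxia EVs, against 37.9, 39.1 and 67.1 in hypoxia cells. In normoxia RNU1-1 held 547, 239.6 and 186 units in EVs, against 95.1, 47.4 and 93.3 in cells. Its EV libraries were above its cell libraries, with log2 fold changes of 1.80 ± 0.38 in hypoxia (limma adjusted p = 0.000356) and 1.94 ± 0.38 in normoxia (limma adjusted p = 0.000241).

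RNU1-2 lay between these. It held 164, 83.7 and 164 units in hypoxia EVs, against 20.6, 18.5 and 24.1 in hypoxia cells, and 324, 214 and 256 units in normoxia EVs, against 25.2, 22.04 and 19.7 in normoxia cells. Cell values of RNU1-2 hardly varied, and the log2 fold changes were 2.59 ± 0.35 in hypoxia (limma adjusted p = 3.34e-06) and 3.50 ± 0.35 in normoxia (limma adjusted p = 1.13e-07).

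The 7 identical copies therefore did not share their reads in the same way in EVs and in cells. RNU1-1 took 5.95 ± 0.263% of their reads in hypoxia EVs and 5.35 ± 1.74% in normoxia EVs, against 21.5 ± 4.02% in hypoxia cells and 27.9 ± 4.96% in normoxia cells (SD, n = 3 each). Its highest EV share, 7.09%, was below its lowest cell share, 18.1%. RNU1-28P took 26.6 ± 3.02% and 27.4 ± 0.862% in hypoxia and normoxia EVs, against 16.5 ± 3.08% and 14.2 ± 1.51% in hypoxia and normoxia cells. RNU1-27P took 16.5 ± 3.40% and 16.6 ± 1.37% in the same EV groups, against 9.02 ± 1.03% and 5.10 ± 1.18% in cells. RNU1-4 had the closest shares, at 9.11 ± 2.43% and 7.81 ± 0.920% in hypoxia and normoxia EVs, against 9.99 ± 1.83% and 6.37 ± 0.376% in hypoxia and normoxia cells. RNVU1-18 took 26.2 ± 1.85% in hypoxia EVs and 27.8 ± 1.53% in normoxia EVs, against 28.3 ± 5.60% in hypoxia cells and 34.2 ± 1.02% in normoxia cells. In normoxia the ratio of mean EV to mean cell units ran from 4.12 for RNU1-1 to 71.4 for RNU1-27P. The 95% intervals of their log2 fold changes, 1.20 to 2.68 for RNU1-1 and 5.38 to 6.62 for RNU1-27P, did not overlap. These figures describe where reads were placed, by a rule that was not given, and the part of that rule was not tested.

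**Figure D4:**
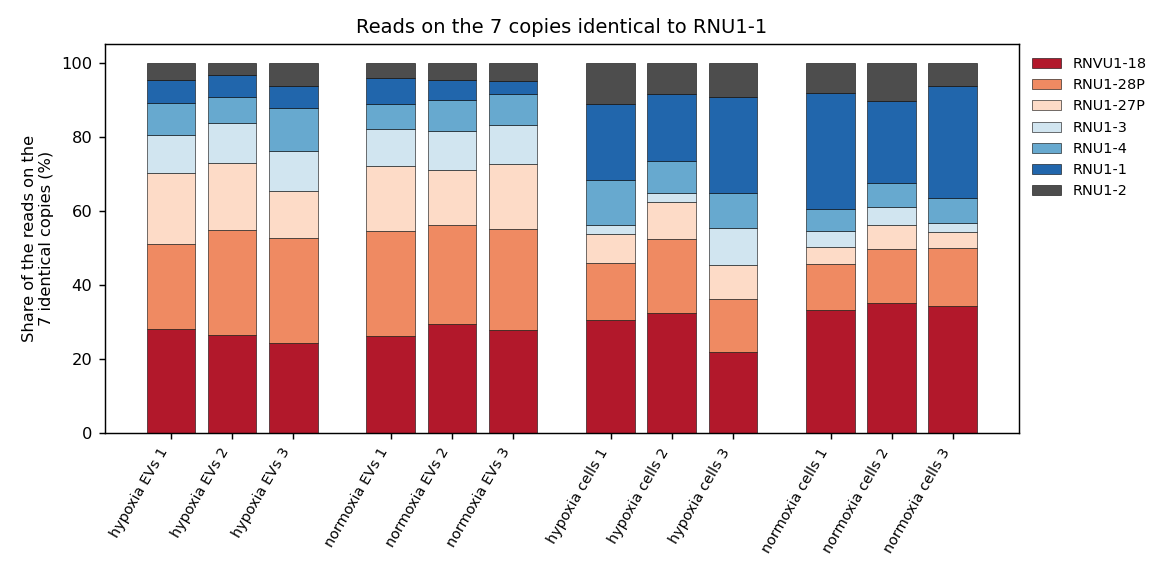
Share (%) of the reads on the 7 U1 copies of identical sequence that fell to each copy, in each of the 12 libraries. The EV libraries look alike in both conditions, and RNU1-1 takes at most 7.09% in any EV library and at least 18.1% in any cell library.

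The near copies RNVU1-1 and RNU1-11P averaged under 10 units in both groups of cells and entered the fit through their EV values, which favoured a difference. RNVU1-1 held 52.1, 22.8 and 32.8 units in hypoxia EVs, against 4.33, 1.54 and 2.62 in hypoxia cells, and 114, 91.9 and 60.6 units in normoxia EVs, against 1.51, 5.51 and 6.74 in normoxia cells. It was higher in EVs by log2 fold changes of 3.26 ± 0.66 in hypoxia (limma adjusted p = 0.00028) and 4.12 ± 0.66 in normoxia (limma adjusted p = 3.33e-05). RNU1-11P held 22.7, 15.2 and 17.7 units in hypoxia EVs, against 1.08, 0 and 1.05 in hypoxia cells, and 33.3, 61.3 and 19.5 units in normoxia EVs, against 0, 2.20 and 1.92 in normoxia cells. Its cell values rested on at most 4 reads in a library, and its log2 fold changes were 3.57 ± 0.82 in hypoxia (limma adjusted p = 0.000844) and 4.06 ± 0.82 in normoxia (limma adjusted p = 0.000351).

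RNVU1-14 and RNVU1-15, the gapped variants, ran the other way. Both averaged under 10 units in both groups of EVs and entered the fit through their cell values, which favoured a lower EV value. Their calls are thus no support for a difference. RNVU1-14 held 8.02, 3.04 and 0 units in hypoxia EVs, against 18.4, 7.21 and 13.6 in hypoxia cells, and 0, 27.02 and 0 units in normoxia EVs, against 30.2, 21.5 and 22.6 in normoxia cells. It was absent from 2 of 3 normoxia EV libraries and overlapped the cell values in the other, so the log2 fold change of -3.07 ± 1.12 in normoxia (limma adjusted p = 0.0246) had a wide error. Its normoxia call was lost when any library of the comparison but normoxia EV replicate 2 was left out, with a limma adjusted p of up to 0.104, and it was not made by edgeR (adjusted p = 0.24). In hypoxia the log2 fold change was -2.0 ± 1.12 (limma adjusted p = 0.116).

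RNVU1-15 held 4.01, 0 and 2.52 units in hypoxia EVs, against 12.98, 6.69 and 25.7 in hypoxia cells, and 0, 9.01 and 0 units in normoxia EVs, against 26.2, 28.1 and 25.98 in normoxia cells. Every EV library was below every normoxia cell library, and the log2 fold change was -3.69 ± 0.98 in normoxia (limma adjusted p = 0.00338). In hypoxia it was -2.45 ± 0.98 (limma adjusted p = 0.0317), a call lost without hypoxia cell replicate 1, hypoxia cell replicate 3 or hypoxia EV replicate 2 (limma adjusted p = 0.0715, 0.138 and 0.144). RNVU1-6, with 15 substitutions, is named after its values were seen. It had 0 reads in all 3 normoxia EV libraries, against 17.1, 14.9 and 18.8 units in normoxia cells, which is at least 2.76-fold lower at a floor of 3 reads per library. Hypoxia EVs held 0, 1.52 and 12.6 units of RNVU1-6, against 1.62, 9.27 and 11.5 in hypoxia cells, so those groups overlapped.

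RNU1-88P, a 128-base copy at chr6:36639545-36639672 with 70.7% identity, was the only copy beyond the top 12 past the threshold in any comparison, namely hypoxia EVs against hypoxia cells. It averaged at least 10 units in hypoxia EVs alone and entered the fit through that group, so its call there is no support for a difference, and with TMM factors it did not enter the fit of 12 libraries. It held 29.4, 15.2 and 55.5 units in hypoxia EVs, against 1.62, 0.515 and 5.24 in hypoxia cells. In normoxia it held 0, 7.21 and 13.7 units in EVs, against 3.52, 0.551 and 1.92 in cells, a log2 fold change of 0.85 ± 1.02 (limma adjusted p = 0.491). Only the hypoxia EVs stood apart for RNU1-88P, the group in which olfactory receptor sums were also highest.

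The other 90 copies with reads averaged under 10 units over the 12 libraries. RNU1-89P (5 substitutions) had the second highest mean among these, 6.42 units, and RNVU1-6 the highest, 7.28 units, while RNU1-88P with 11.2 units was the lowest that passed. None of these 90 entered the fit of EVs and cells with its minimum of 10 units. With no filter all 103 copies with reads were tested. In normoxia EVs 12 were then higher than in normoxia cells and 5 lower, where 12.6% and 12.8% of all genes were, and in hypoxia EVs 15 were higher than in hypoxia cells and 4 lower, where 28.2% and 14.2% of all genes were.

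Hypoxia EVs held 0.499 times the U1 units of normoxia EVs, without overlap of the libraries. In RPM the ratio was 0.749 and the libraries overlapped. They held 528, 369.6 and 409 in hypoxia EVs, against 659.9, 471 and 615 in normoxia EVs. The same ratio in units was 0.437 for U5 and 0.384 for U4, against 1.001 for U2 and 1.49 for U6. In RPM these were 0.662, 0.585, 1.49 and 2.17, so a fall was not particular to U1. The fit of the 6 EV libraries tested 12 U1 copies. Of these, 5 were lower in hypoxia EVs and 0 were higher, where 6.62% of all genes were lower and 5.68% were higher. Of these 5, all but RNVU1-7 are among the 7 identical copies, and RNVU1-7 differs from those by a single base. Reads that do not cover that base match it as well, so the 5 are not separate results. At an unadjusted limma p under 0.05, 9 of the 12 were lower and 1 was higher, beside 13.6% and 21.1% of all genes. The edgeR test called 7 lower and 0 higher, beside 8.88% and 3.68% of all genes. DESeq2 also called 7 lower and 0 higher, beside 10.7% and 5.56%. Of 20 other small nuclear RNAs in this fit, limma called 9 lower and 0 higher, beside 6.62% and 5.68% of all genes. RNVU1-18 held 962, 632 and 623 units in hypoxia EVs, against 2022, 1313 and 1433 in normoxia EVs, without overlap, and fell by 1.11 on the log2 scale (SE 0.23, limma adjusted p = 0.0144). RNVU1-7 also showed no overlap, with a log2 fold change (hypoxia over normoxia) of -1.13 ± 0.23 (limma adjusted p = 0.0133). RNU1-28P had -1.08 ± 0.23 (limma adjusted p = 0.0148), RNU1-27P -1.05 ± 0.27 (limma adjusted p = 0.0244) and RNU1-3 -0.97 ± 0.26 (limma adjusted p = 0.0255). The other U1 genes did not pass, with -0.83 ± 0.28 for RNU1-4 (limma adjusted p = 0.0529), -0.99 ± 0.34 for RNU1-2 (limma adjusted p = 0.0551) and -0.82 ± 0.35 for RNU1-1 (limma adjusted p = 0.109). RNU1-88P, which entered through its hypoxia EV values, had 2.62 ± 1.23 with no overlap of its groups and did not pass (limma adjusted p = 0.133). The near copies RNVU1-1, RNU1-11P and RNU1-89P had -1.32 ± 0.58 (limma adjusted p = 0.115), -0.87 ± 0.85 (limma adjusted p = 0.453) and -1.57 ± 1.15 (limma adjusted p = 0.318). RNU1-89P held 5.34, 6.09 and 5.04 units in hypoxia EVs, against 14.3, 21.6 and 19.5 in normoxia EVs, without overlap. It entered this fit through its normoxia EV values, so its gap is no support for a difference.

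The fall in EVs depended on the scaling and on single libraries. With every library set to the same total, the median of all genes moved to 1.21 on the log2 scale, against 0.60 with the deposited scaling, and the negative U1 changes moved towards 0, while RNU1-88P moved to 3.01. On equal totals RNVU1-7 alone stayed past the threshold, at -0.56 (limma adjusted p = 0.0362), and RNVU1-18 had -0.54 (limma adjusted p = 0.0581). Relative to the median of all genes, 11 of the 12 copies had lower values on both scalings and RNU1-88P had higher ones. The mRNA lists described below also had medians under that of all genes, from -0.88 to -0.53 with the deposited scaling. On equal totals their medians ran from -0.31 to 0.03, so lying below the median was not particular to U1. The count of 5 copies lower became 4 without hypoxia EV replicate 1, 0 without hypoxia EV replicate 2 or 3, 2 without normoxia EV replicate 1, 0 without normoxia EV replicate 2 and 9 without normoxia EV replicate 3, when RNU1-88P was called higher. Leaving out a library also changed the calls over all genes, which numbered 7 lower without normoxia EV replicate 2 and 3934 lower without normoxia EV replicate 3. Every leave-out kept the direction of the 5 copies.

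In cells, the share of U1 copies called lower after hypoxia was near that of all genes. Of 11 copies tested in the 6 cell libraries, 2 were lower in hypoxia cells and 0 were higher, where 22.4% of all genes were lower and 8.01% were higher. At an unadjusted limma p under 0.05, 5 were lower and 0 higher, beside 27.3% and 11.7% of all genes. The edgeR test called 1 lower and 0 higher, beside 15.1% and 11% of all genes, and DESeq2 called 0 in either direction, beside 14.6% lower and 11.2% higher. The 17 variants summed to 137, 132 and 160.5 units in hypoxia cells, against 209, 183 and 224 in normoxia cells, a ratio of 0.697 with no overlap. RNVU1-18 held 56.2, 70.02 and 56.6 units in hypoxia cells, against 101, 74.95 and 106 in normoxia cells, without overlap, a log2 fold change of -0.61 ± 0.21 (limma adjusted p = 0.0201). RNU1-1 held 37.9, 39.1 and 67.1 units in hypoxia cells, against 95.1, 47.4 and 93.3 in normoxia cells, and its groups overlapped, with a log2 fold change of -0.68 ± 0.25 (limma adjusted p = 0.031). On equal totals neither passed, at -0.48 (limma adjusted p = 0.0846) and -0.56 (limma adjusted p = 0.111). No copy was called without normoxia cell replicate 1 or normoxia cell replicate 3, and 1 was called without hypoxia cell replicate 1.

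The remaining copies in cells missed the threshold. RNVU1-14 had -0.94 ± 0.42 (limma adjusted p = 0.0819), RNVU1-15 -0.96 ± 0.41 (limma adjusted p = 0.0698) and RNVU1-6 -1.36 ± 0.55 (limma adjusted p = 0.0531). For each of these variants every hypoxia cell library was below every normoxia cell library. RNVU1-6 averaged under 10 units in hypoxia cells and entered this fit through its normoxia cell values, so its gap is no support for a difference. RNVU1-7 and RNU1-27P had positive values of 0.60 ± 0.41 (limma adjusted p = 0.286) and 0.49 ± 0.42 (limma adjusted p = 0.42). The 95% intervals of RNU1-28P (-0.69 to 0.46), RNU1-2 (-0.81 to 0.65), RNU1-3 (-1.34 to 0.91) and RNU1-4 (-0.47 to 1.07) all spanned 0.

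**Figure D5:**
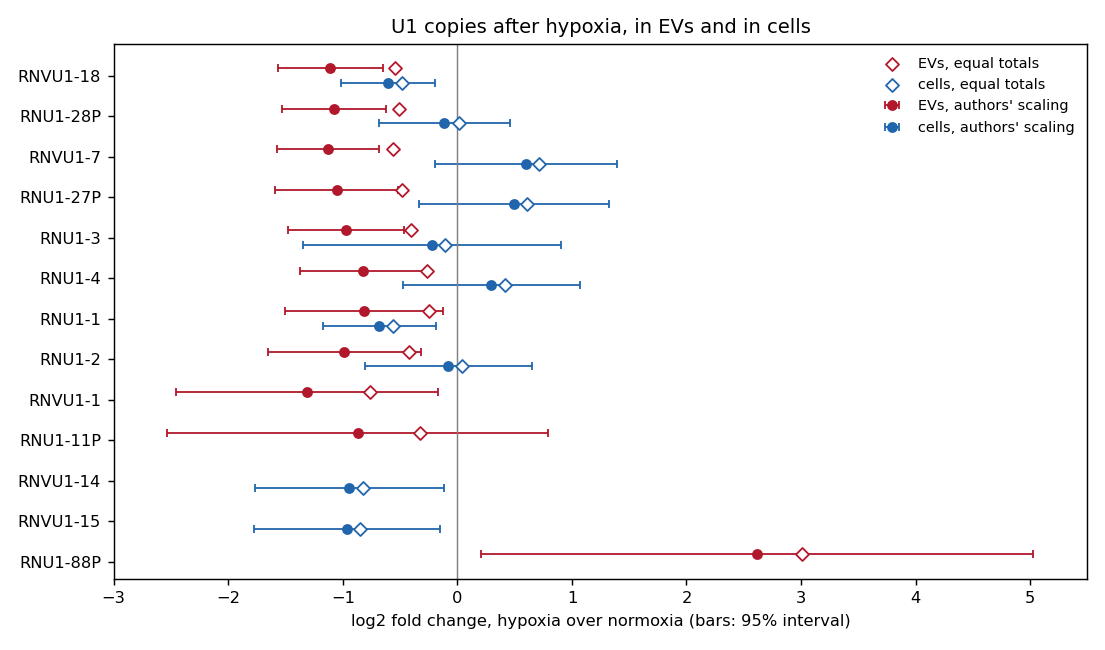
Log2 fold change of hypoxia over normoxia for 13 U1 copies, where tested, in EVs (red) and in cells (blue), with the deposited scaling (filled circles, bars: 95% interval) and with equal totals (open diamonds). In EVs the first 10 copies lie left of 0 under both scalings and nearer to it on equal totals, and in cells most intervals include 0.

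The difference of the hypoxia responses, EVs minus cells, was tested for 13 copies. It passed for 1 copy, RNVU1-7, and was negative, where 1.87% of all genes were lower and 0.443% were higher, and 0 of the 13 copies were higher. By edgeR 3 copies were lower and 0 higher, beside 6.12% and 0.765% of all genes, and by DESeq2 also 3 and 0, beside 6.86% and 2.15%. At an unadjusted limma p under 0.05, 4 were lower and 0 higher, beside 11.5% and 9.84% of all genes. The difference for RNVU1-7 was -1.73 ± 0.42 (limma adjusted p = 0.0394), made up of a response of -1.13 ± 0.23 in EVs and 0.60 ± 0.41 in cells in the separate fits. It did not pass on equal totals, at -1.28 (limma adjusted p = 0.0824), nor when any library other than normoxia EV replicate 3 was left out (limma adjusted p of 0.0537 to 0.131). For RNU1-27P the difference was -1.54 ± 0.45 (limma adjusted p = 0.0701), for RNU1-28P -0.96 ± 0.35 (limma adjusted p = 0.134) and for RNU1-1 -0.13 ± 0.53 (limma adjusted p = 0.899).

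Most mRNAs of U1 snRNP proteins were lower in EVs than in cells. Of 10 tested U1 snRNP protein mRNAs, 8 were lower in normoxia EVs than in normoxia cells and 2 were higher, with a median log2 fold change of -1.32 beside 0.21 over all genes. Of all genes, 27.2% were lower and 29% were higher. SNRPF and SNRPE, subunits of the Sm ring, had -2.33 ± 0.15 (limma adjusted p = 8.88e-10) and -2.25 ± 0.19 (limma adjusted p = 1.25e-08). The higher ones were SNRNP70, which encodes U1-70K, at 1.15 ± 0.16 (limma adjusted p = 6e-06), and SNRPD2 of the Sm ring at 0.42 ± 0.14 (limma adjusted p = 0.0132), both named after their values were seen. On equal totals and by edgeR 1 of the 10 was higher, beside 6203 of 25105 and 7705 of 24171 genes. In hypoxia 8 of the 10 were lower in EVs than in cells and SNRNP70 was higher, a call that edgeR did not make (0 of 10 higher), with a median of -1.43 beside 0.43 over all genes. Of all genes, 29.1% were lower and 40.6% were higher.

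Of 22 mRNAs for capping, export, assembly, import and trimming of small nuclear RNAs, 15 were lower in normoxia EVs than in normoxia cells and 0 were higher, with a median of -1.34, and edgeR also had 0 higher. Of all genes, 27.2% were lower and 29% were higher, and 7705 of 24171 were higher by edgeR. In hypoxia the counts were 16 lower and 0 higher, beside 29.1% and 40.6% of all genes. On equal totals 2 of the 22 were higher in hypoxia, beside 11723 of 25105 genes. XPO1, the exporter that carries U1 precursors out of the nucleus, had -2.91 ± 0.19 in normoxia (limma adjusted p = 6.27e-10). WDR77, a partner of the methyltransferase PRMT5 that modifies Sm proteins, had -2.47 ± 0.20 (limma adjusted p = 9.79e-09), and NCBP1 of the nuclear cap-binding complex had -2.02 ± 0.18 (limma adjusted p = 2.29e-08).

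Of 19 mRNAs for transcription and 3′ end formation, 12 were lower in normoxia EVs than in normoxia cells and 5 were higher (SNAPC4, ELL, INTS1, SNAPC5 and INTS11). For this list and the next, 27.2% of all genes were lower and 29% were higher. SNAPC3 and SNAPC4, subunits of the complex that binds the U1 promoter, had -2.72 ± 0.25 (limma adjusted p = 3.55e-08) and 1.44 ± 0.18 (limma adjusted p = 1.87e-06), in opposite directions. Of 12 splicing factors, most of them known to act with U1, 7 were lower and 4 higher (ZRSR2, RBM25, LUC7L3 and LUC7L). ZRSR2, which like SNRNP48 of this list acts in the minor spliceosome, where U11 takes the place of U1, was highest at 1.98 ± 0.16 (limma adjusted p = 7.9e-09). The genes beyond the 4 smallest p-values of a list were named after their values were seen.

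With hypoxia in cells, all 10 tested U1 snRNP protein mRNAs were lower, with a median of -0.36 beside -0.07 over all genes, and 6 were lower on equal totals. For every list here, 22.4% of all genes were lower and 8.01% were higher. On equal totals 2038 of 17274 genes were lower and 2306 higher, and by edgeR 15.1% were lower and 11% higher. SNRPC, which encodes U1-C, had -0.50 ± 0.06 (limma adjusted p = 8.17e-10). Of the 22 assembly and transport mRNAs, 18 were lower in hypoxia cells and 0 higher, with 12 lower and 1 higher on equal totals, and edgeR also had 1 higher. GEMIN5, the SMN complex subunit that recognises small nuclear RNAs, had -0.78 ± 0.07 (limma adjusted p = 1.85e-15), and PRMT5 had -0.62 ± 0.08 (limma adjusted p = 3.87e-09). Of the transcription list 7 of 19 were lower and 1 higher (SNAPC1), and of the splicing factors 5 of 12 were lower and 1 higher (PRPF40B). On equal totals 3 of the transcription list and 2 of the splicing factors were lower, and by edgeR 4 and 3.

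With hypoxia in EVs, 2 of 11 U1 snRNP protein mRNAs were lower and 0 higher, also by edgeR, with a median of -0.53 beside 0.60 over all genes. The 2 lower ones were SNRNP70 at -0.94 ± 0.23 (limma adjusted p = 0.0206) and SNRPD2 at -0.74 ± 0.21 (limma adjusted p = 0.0296). For every list here, 6.62% of all genes were lower and 5.68% were higher. On equal totals 188 of 29132 genes were lower and 4404 higher, and by edgeR 8.88% were lower and 3.68% higher. Of the 22 assembly and transport mRNAs 4 were lower and 0 higher, led by TGS1, the enzyme that trimethylates the U1 cap, at -0.99 ± 0.27 (limma adjusted p = 0.029). On equal totals these lists had 1 and 0 lower, and edgeR had 7 lower and 0 higher of the 22. Of the transcription list 6 of 19 were lower and 0 higher, also by edgeR, with 0 in either direction on equal totals. Of the splicing factors, 6 of 12 were lower in hypoxia EVs and PRPF40B was higher, with 2 lower on equal totals. LUC7L3 had -1.27 ± 0.25 (limma adjusted p = 0.0129), and its response differed between EVs and cells by -1.25 ± 0.26 (limma adjusted p = 0.0214).

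Over the 12 libraries, the genes whose log2 values followed RNVU1-18 most closely were RNU1-28P (Pearson r = 0.992), GTF2F1 (0.989), FAM32A (0.986), ENSG00000104725, an ID with no symbol in the tables used (0.986), and DRAP1 (0.985). These are descriptions over 4 groups of 3 libraries that differ in RNA source and depth, among 24171 genes compared. GTF2F1 averaged 5518 units in hypoxia EVs and 9741 in normoxia EVs, against 1681 and 2024 in hypoxia and normoxia cells.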

How the data were processed

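The deposited unit is a signal for each gene: read counts over 1 scaling factor per library, as shown by the values themselves. Dividing each library by its smallest step gave whole reads for 100% of values within a tolerance of 0.01. Bowtie 0.12.2 and DESeq2 1.30.1 stand in the submitters' processing notes, with the builds hg38 and GRCh38. The counter, its strand setting and its treatment of reads with several matches were not given in the sources used, and such placement could move reads between U1 copies. Of the 57773 IDs, 52338 (90.6%) matched GENCODE release 29, the source of positions and sequences. Samples were grouped by their titles. The labels do not state whether replicates were separate cultures, and p-values then measure only the spread between these samples, possibly technical. Libraries of a group differed by more than sampling noise (5.27 to 14.8 chi-square units per degree of freedom), and each was kept as its own sample.

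Genes were tested by limma-trend, in limma 3.58.1 under R 4.3.3, on log2(value + 1) over genes averaging at least 10 units in the libraries fitted, Benjamini-Hochberg adjusted over all genes, at 0.05. Hypoxia was tested in the 6 cell and the 6 EV libraries apart, and EVs against cells in 1 fit of all 12, with the difference of responses as an interaction. Alternatives were a pseudocount of 5, no filter, TMM factors, equal totals, edgeR 4.0.16 and DESeq2 1.42.0 on the recovered whole reads, a replicate block and leaving out each library. In the 6 cell libraries edgeR called 1891 genes higher and 2606 lower, and in the 6 EV libraries 1026 and 2477. Identity came from global alignment in Biopython 1.88. Floors of 3 reads cover counting error only, as reads carry no molecular identifiers.

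Copies described singly are the 12 with the highest mean over all libraries and any other past the threshold. Of each list, up to 4 genes with the smallest p are named, with exceptions marked. The members and lists were chosen with earlier results of these data known.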

Additional observations from a re-analysis of the deposited data

Results flagged for a closer look

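RNVU1-7 was picked out because the interaction test passed: its log2 responses to hypoxia differed by -1.73, EVs minus cells (limma adjusted p = 0.0394). RNU1-27P was picked out because all its hypoxia EV libraries (657, 426 and 325 units) were below all normoxia EV libraries (1344, 676 and 897), while all its hypoxia cell libraries (14.6, 21.6 and 23.6) were above all normoxia cell libraries (13.6, 13.8 and 13.5). Its difference of responses was -1.54, and the interaction test did not pass, so no difference was shown (limma adjusted p = 0.0701). RNU1-27P shares its sequence with 6 other copies, so its own value is uncertain. RNVU1-7 differs from RNU1-27P by a single base, so reads elsewhere match both and its value is uncertain too. On equal totals the differences were -1.28 and -1.09, and neither passed (limma adjusted p = 0.0824 and 0.15).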

How the results depend on the processing

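Each copy past the threshold was recomputed under every alternative that could be fitted, 419 values in all: 357 kept the call, 62 lost it and 0 turned direction. The counts of copies higher in EVs than in cells (10 in normoxia, 11 in hypoxia) stayed within 1.5 times of themselves throughout. The 2 copies lower in normoxia EVs became 5 with no filter and 1 with edgeR or DESeq2, and 1 to 2 with a library left out. The 1 copy lower in hypoxia EVs than in hypoxia cells became 4 with no filter and 0 to 1 with a library left out. In cells, the 2 copies lower after hypoxia became 0 on equal totals, 1 with edgeR, 0 with DESeq2 and 0 to 3 with a library left out. In EVs the 5 copies lower after hypoxia became 1 on equal totals and 0 to 9 with a library left out, and the 0 higher became 0 to 1. The 1 copy with a lower response in EVs than in cells became 0 with no filter or on equal totals, 2 with TMM factors, 3 with edgeR or DESeq2, and 0 to 2 with a library left out. With the replicate number as a block that count was 0. Same-numbered libraries did not deviate together (r from -0.117 to 0.061), so the numbers were not taken as pairs. The block gave 7 copies lower in hypoxia EVs and 3 lower in hypoxia cells. The cause of these shifts was not tested. A fit with a library left out also has fewer samples, and the part of this was not tested either. Precision of the cell values is limited by 592 to 997 U1 reads per library, and that of single EV values by 1.34 to 2.52 units per read.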
